A study of Mus musculus with 4 samples.

Results

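Caspases are the proteases that carry out apoptosis, and the inhibitor-of-apoptosis proteins and Apaf1 set how readily they are switched on. The members described here are the caspases Casp1, Casp2, Casp6, Casp8 and Casp9, the inhibitor-of-apoptosis genes Birc2 and Birc3, and Apaf1. They were chosen by gene symbol, and every feature of the array that carries 1 of these 8 symbols was taken. That gave 12 of 33709 gene features. Casp1, Casp2, Casp6, Casp8 and Casp9 had 1 feature each, Apaf1 had 3, and Birc2 and Birc3 had 2 each.

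The study compared db/db with db/+ mice on the C57BL/6 background. The db/db mice carry the diabetes mutation on both copies of Lepr, which encodes the receptor of leptin, and grow obese with diabetes, although the sample labels call their phenotype leptin-deficient. The db/+ mice carry 1 functional copy of Lepr and are labelled wild type, so they are heterozygous and not free of the mutation. In both groups CD4+CD25- T lymphocytes were taken from the spleen and cultured with antibodies to CD3 and CD28 for 12 h, a stimulus that engages the T cell receptor and the co-stimulatory receptor CD28. Each group had 2 samples, and for each of them the cells of 3 mice were pooled and their labelled RNA was read on 1 Agilent array in 1 colour. Age and sex of the animals are not given in the sources used here, no unstimulated cells were analysed here, and pooling hides the spread between mice.

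Apoptosis starts by separate routes. Death receptors such as Fas bring Casp8 together with the adaptor Fadd, while cytochrome c released from mitochondria assembles Apaf1 and Casp9 into the apoptosome. These initiator caspases cleave effector caspases, among them Casp6. Birc2 and Birc3, also called cIAP1 and cIAP2, are ubiquitin ligases that bind Traf2, keep the alternative NF-kB route low and promote survival signals at TNF receptors. In activated T cells the balance between these genes bears on how many cells outlive the stimulus. Casp1 stands apart as the inflammasome protease that cleaves interleukin-1 beta and gasdermin D.

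Values are log2 normalized intensities, db/db over db/+ differences are log2 fold changes, and a feature was called where limma's adjusted p was below 0.05. None of the 12 features was called when all 33709 gene features were tested, and 6 of the 12 had an unadjusted p below 0.05, as had 6578 of the 33709. Among all gene features 0.997% were called, 0.578% higher and 0.418% lower in db/db pools. Stretches of neighbouring spots departed between arrays, as described at the affected genes. With these departing stretches left out, 7 of the 12 features remained in the test. Of those 7, the brighter Birc2 feature and the Casp9 feature were called higher in db/db pools and none was called lower. The other kept Birc2 feature was not called. Over all 25467 kept features 8.2% were called, 6.69% higher and 1.51% lower. Both calls were lost when the kept features were normalized again among themselves, where 7.57% of features were called, 4.32% higher and 3.24% lower. Both db/db pools lay above both db/+ pools for 8 of 12 features and below them for 1, against 31.2% above and 21.9% below over all gene features, and 35.1% above and 19.9% below over the kept ones. The median log2 fold change was 0.44 over the 12 features and 0.02 over all gene features.

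**Figure D1:**
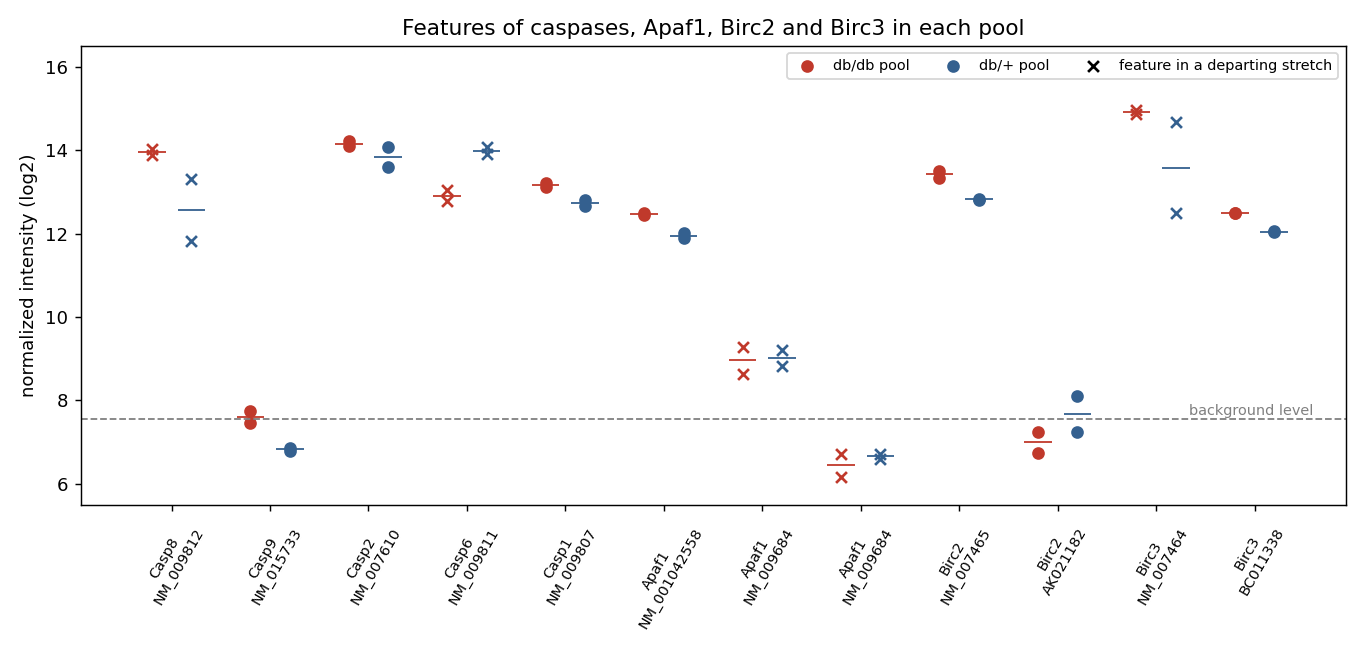
Normalized intensity on a log2 axis for the 12 features of the 8 genes, with db/db pools in red on the left and db/+ pools in blue on the right of each feature, a short line at the mean of the 2 pools, crosses for features in departing stretches and a dashed line at the background level of 7.55. The brightest kept features of Apaf1, Birc2 and Birc3 lie 0.44 to 0.60 higher in db/db pools with little spread, Casp6 is the only feature with both db/db pools below both db/+ pools, and the db/+ pools of Casp8 and of the brighter Birc3 feature are far apart.

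Birc2 and Birc3, the inhibitors, each had a feature outside the departing stretches with higher readings in both db/db pools. The Birc2 feature for NM_007465 read 13.33 and 13.50 in db/db pools and 12.83 and 12.81 in db/+ pools. The db/db pools did not overlap the db/+ pools, and the difference of 0.60 (95% interval 0.29 to 0.90) is 1.51-fold. Its limma adjusted p was 0.105 over all features and 0.0468 with the departing stretches left out. After the kept features were normalized again, the difference was 0.44 with an adjusted p of 0.0992. The second Birc2 feature, for AK021182, was also outside the stretches. It read 6.73 and 7.25 in db/db pools against 8.11 and 7.25 in db/+ pools. It lay around the background level of 7.55, the median of all gene features. Its difference of -0.69 had an adjusted p of 0.450 over all features and 0.316 with the stretches left out. The difference was -0.26 without db/+ pool 1 and -1.12 without db/+ pool 2.

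Birc3, the close relative that lies beside Birc2 in the genome, had a kept feature for BC011338. It read 12.49 and 12.48 in db/db pools against 12.06 and 12.03 in db/+ pools. The groups did not overlap and each pair of pools agreed closely, with a difference of 0.44 (0.20 to 0.68), or 1.36-fold. The adjusted p was 0.114 over all features and 0.0622 with the stretches left out. After normalizing the kept features again the difference was 0.24 with an adjusted p of 0.229.

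The brighter Birc3 feature, for NM_007464, sat in a departing stretch. It read 14.96 and 14.87 in db/db pools against 14.67 and 12.50 in db/+ pools. A spot is called off where it lies more than 2 log2 units away from the median of the other 3 arrays. The spot of db/+ pool 2 was off, on a line where 13.9% of the spots of that array were off. The difference of 1.33 had an adjusted p of 0.483. It was 0.25 without db/+ pool 2 and 2.42 without db/+ pool 1, so 1 array decided its size.

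The promoters of Birc2 and Birc3 are shown because these neighbouring genes gave similar differences on their brightest kept features. The other kept feature of Birc2, around background, had a negative difference. Promoter sequences are from RefSeq on GRCm38.p6, run 5′ to 3′ on the strand of the gene, and surround an annotated start. Capitals mark motif matches on either strand. The motifs searched were NF-kB (GGGANTTTC), CRE (TGACGTCA), AP-1 (TGANTCA), ISRE (GAAANNGAA), E2F (TTTGGCGC) and the GC box (GGGCGG), which do not overlap one another in the sequences shown.
Birc2, chr9:7837008-7837307, minus strand: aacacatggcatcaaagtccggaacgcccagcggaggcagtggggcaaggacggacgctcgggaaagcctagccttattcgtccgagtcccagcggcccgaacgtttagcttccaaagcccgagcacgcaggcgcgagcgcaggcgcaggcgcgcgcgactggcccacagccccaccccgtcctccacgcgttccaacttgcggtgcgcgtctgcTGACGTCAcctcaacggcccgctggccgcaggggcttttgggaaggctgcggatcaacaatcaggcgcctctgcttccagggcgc
Birc3, chr9:7873121-7873420, minus strand: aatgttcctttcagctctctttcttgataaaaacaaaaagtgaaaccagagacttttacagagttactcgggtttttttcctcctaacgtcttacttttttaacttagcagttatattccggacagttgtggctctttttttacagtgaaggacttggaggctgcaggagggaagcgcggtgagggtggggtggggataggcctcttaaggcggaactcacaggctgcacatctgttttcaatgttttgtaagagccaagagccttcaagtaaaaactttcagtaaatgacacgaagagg
Of 32851 RefSeq promoter windows, 1.11% held the NF-kB motif, 1.79% CRE, 7.81% AP-1, 8.56% ISRE, 0.514% E2F and 35.7% the GC box. The Birc2 window held 1 CRE match. A second annotated Birc2 start, chr9:7836757-7837056, held 2 GC boxes and no CRE match. The Birc3 window held none of the 6 motifs. These matches are descriptions of letters and were not tested for binding.

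Casp9, the initiator caspase of the apoptosome, was read close to background. It had 7.73 and 7.45 in db/db pools and 6.79 and 6.86 in db/+ pools. Both db/+ pools and db/db pool 2 were below the background level of 7.55, and the groups did not overlap. The difference was 0.77 (0.35 to 1.18), with an adjusted p of 0.111 over all features, 0.0443 with the stretches left out and 0.0506 after normalizing again. Because the db/+ pools were at background, the fold is bounded only through the db/db mean, as at least 1.03-fold higher. With db/db pool 2 itself below that level, the bound rests on db/db pool 1 alone. The call for Casp9 thus rests on readings around the background level.

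Apaf1, the scaffold of the apoptosome, is represented by the feature for NM_001042558. It read 12.45 and 12.50 in db/db pools against 11.89 and 12.01 in db/+ pools. The groups did not overlap, and the difference of 0.53 (0.25 to 0.81) is 1.44-fold. The adjusted p was 0.111 over all features and 0.0530 with the stretches left out. The other features of Apaf1, both for NM_009684, sat in departing stretches. The brighter of these read 8.64 and 9.28 in db/db pools against 8.82 and 9.22 in db/+ pools, on a line where 22.2% of the spots of db/db pool 1 were off. The groups overlapped there, with a difference of -0.06 and an adjusted p of 0.939. The dimmer one read 6.17 and 6.72 in db/db pools against 6.60 and 6.72 in db/+ pools, at background in both groups. The difference of this feature was -0.22 with an adjusted p of 0.660. Without db/db pool 1 the 2 features differed by 0.26 and 0.06. The brighter one also turned positive without db/+ pool 2, at 0.14, so its sign did not rest on db/db pool 1 alone.

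Casp8, the initiator caspase at death receptors, had the largest positive difference among the 8 genes by its representing feature and the widest interval. Its only feature, for NM_009812, read 14.02 and 13.89 in db/db pools and 13.30 and 11.81 in db/+ pools. Both db/db pools were above both db/+ pools, but the db/+ pools differed from each other by more than the db/db pools differed from db/+ pool 1. The means were 13.95 ± 0.09 in db/db and 12.55 ± 1.05 in db/+ pools (SD, n = 2 each). The difference of 1.40 had an interval of -0.29 to 3.09 and an adjusted p of 0.324. The spot of db/+ pool 2 was off, on a line with 6.02% off spots on that array. The difference was 0.65 without db/+ pool 2 and 2.14 without db/+ pool 1, with limma adjusted p of 0.164 and 0.189. A change of Casp8 was therefore not detectable with these pools, and its size depended on 1 array.

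Casp2, an initiator-type caspase that the PIDDosome activates, read 14.22 and 14.10 in db/db pools against 13.60 and 14.07 in db/+ pools. The db/+ pools were far apart and db/+ pool 2 lay just under the db/db pools. The difference of 0.33 (-0.26 to 0.92) had an adjusted p of 0.478. It was 0.09 without db/+ pool 1 and 0.56 without db/+ pool 2.

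Casp6, an effector caspase that cleaves nuclear lamins, was the only one of the 8 genes with lower readings in both db/db pools. Its single feature, for NM_009811, read 12.77 and 13.03 in db/db pools against 13.91 and 14.07 in db/+ pools. The groups were well apart, with means of 12.90 ± 0.18 in db/db and 13.99 ± 0.11 in db/+ pools (SD, n = 2 each). The difference was -1.09 (-1.50 to -0.67), or 2.12-fold lower, with an unadjusted p of 0.00271 and an adjusted p of 0.0781. Leaving out 1 pool at a time gave differences of -1.21 to -0.96.

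The line of Casp6 was among those left out, because 8.27% of its spots on the array of db/db pool 2 were off. The Casp6 spot itself was not off on any array, and none in the run of 15 spots around it was off. Without db/db pool 2, the difference was -1.21. Spots that split the arrays by genotype can count towards the rule that sets the stretches, although that rule does not use the genotype labels. Setting such splits aside uses the labels to decide which spots count, so calls in that fit are not independent of the comparison. With such splits not counted, Casp6 stayed in the test and was called lower with an adjusted p of 0.0392, the only call among 10 tested features of the 8 genes. In that fit 5.49% of 28757 gene features were called, 4.19% higher and 1.3% lower.

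**Figure D2:**
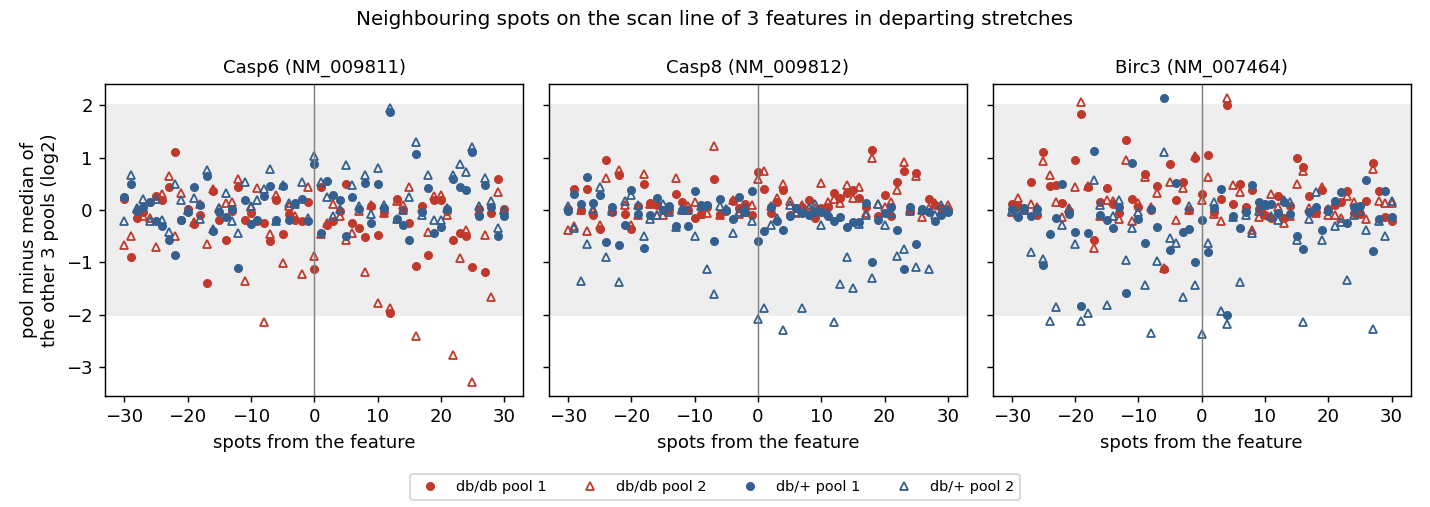
Each point is 1 spot on the scan line of Casp6, Casp8 or the brighter Birc3 feature, placed by its distance in spots from the feature (x axis) and by its pool's value minus the median of the other 3 pools in log2 units (y axis), with db/db pools in red, db/+ pools in blue and the band within 2 log2 units shaded. At distance 0 the db/+ pool 2 reading lies below the band for Casp8 and Birc3, on lines with 6.02% and 13.9% off spots in that array, whereas all 4 readings of Casp6 lie inside the band.

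The promoters of Casp6 and Casp9 are shown because Casp6 is the gene with the lower readings in db/db pools and Casp9 is the dimmer of the called genes, under the same conventions, with GC boxes in capitals.
Casp6, chr3:129901165-129901464, plus strand: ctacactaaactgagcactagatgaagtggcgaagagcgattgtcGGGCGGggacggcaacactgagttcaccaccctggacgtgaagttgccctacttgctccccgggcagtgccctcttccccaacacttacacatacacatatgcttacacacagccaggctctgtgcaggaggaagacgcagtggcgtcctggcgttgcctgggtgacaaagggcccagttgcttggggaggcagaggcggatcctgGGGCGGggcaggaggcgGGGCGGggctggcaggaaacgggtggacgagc
Casp9, chr4:141793362-141793661, plus strand: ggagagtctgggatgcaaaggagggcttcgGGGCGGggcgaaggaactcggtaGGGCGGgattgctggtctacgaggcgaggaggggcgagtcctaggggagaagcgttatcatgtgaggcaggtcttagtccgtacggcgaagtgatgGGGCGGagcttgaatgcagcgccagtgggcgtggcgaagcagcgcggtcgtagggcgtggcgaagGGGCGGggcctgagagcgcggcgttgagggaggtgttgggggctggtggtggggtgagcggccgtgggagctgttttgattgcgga
The Casp6 window held 3 GC boxes and the Casp9 window held 4. None of the other motifs matched either window.

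Casp1, the inflammatory caspase, read 13.22 and 13.13 in db/db pools and 12.65 and 12.80 in db/+ pools. The groups did not overlap, and the difference of 0.44 (0.14 to 0.75) is 1.36-fold. The adjusted p was 0.156 over all features and 0.0854 with the stretches left out. After normalizing the kept features again the difference was 0.28 with an adjusted p of 0.147.

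The positive differences of these genes have to be read against a shift shared by features of like brightness. With quantile normalization, kept features with a mean of 10 to 12 had a median difference of 0.26, and those of 12 to 15 had 0.11. Median scaling gave 0.02 and 0.01 in the same classes. Under median scaling Casp6 differed by -1.16, against -1.09 by quantile normalization. Normalizing the kept features again lowered Apaf1 to 0.33, Birc2 to 0.44 and Birc3 to 0.24. No gene changed direction on its representing feature under the scalings tried, although for Casp9, at background in db/+ pools, the size carries no more than the bound above.

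**Figure D3:**
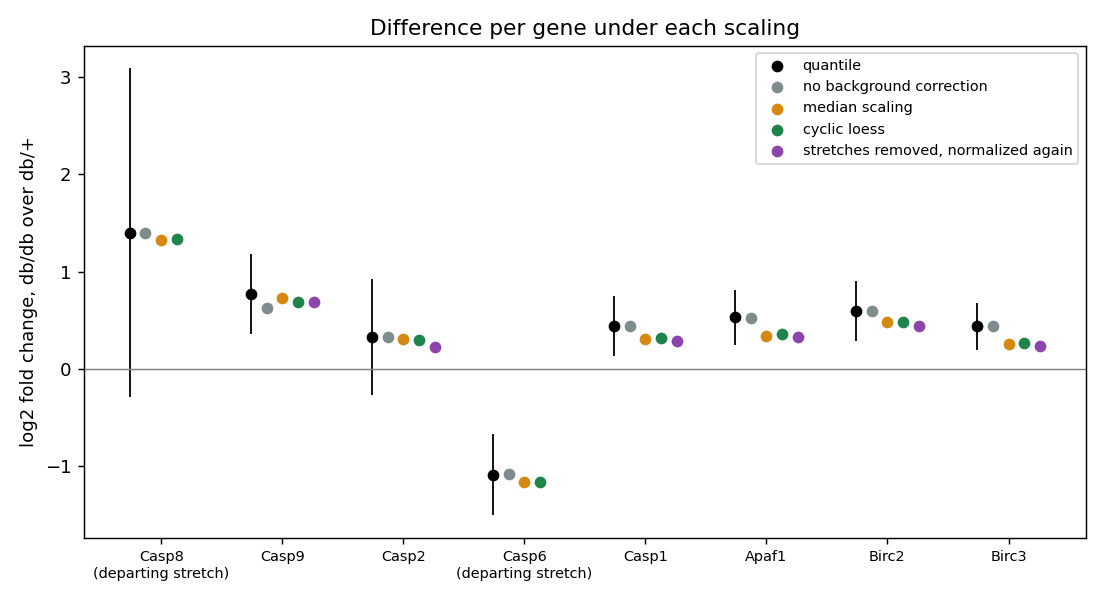
Log2 fold change of db/db over db/+ pools for the representing feature of each of the 8 genes under 5 ways of scaling, with black bars for the 95% interval of the quantile-normalized values. Casp6 lies at -1.16 to -1.08 under the 4 scalings that keep its line and the other 7 genes lie above 0 under each scaling drawn, with Birc3 between 0.24 and 0.44.

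The wider pathway was followed through 8 lists with 56 genes, of which 49 were measured and 6 of the 49 were at background. The remaining listed genes were not analysed here. On 1 feature per gene, 0 of 49 were called by limma over all features, and 16 had an unadjusted p below 0.05, beside 6578 of 33709 gene features. With the stretches left out, 3 of 45 were called higher in db/db pools and none lower, beside 6.69% higher and 1.51% lower over all features. The 3 were Mlkl, Gsdmd and Traf1.

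Mlkl, the pore-forming protein of necroptosis, read 11.47 and 11.48 in db/db pools and 9.79 and 9.33 in db/+ pools. The groups were far apart, and the difference of 1.92 (1.35 to 2.48) had an adjusted p of 0.0621 over all features and 0.0180 with the stretches left out. Gsdmd, the gasdermin that Casp1 cleaves in pyroptosis, read 13.14 and 13.10 in db/db pools against 12.10 and 12.37 in db/+ pools. Its difference was 0.88 (0.50 to 1.27), with an adjusted p of 0.0882 over all features and 0.0322 with the stretches left out. Of the 8 kept features of Gsdmd, 4 were called higher and none lower. After the kept features were normalized again, the adjusted p of these 4 was 0.0332, 0.0438, 0.0641 and 0.0644. Another kept feature differed by -0.61, with 12.66 and 10.22 in db/db pools against 12.02 and 12.07 in db/+ pools. All Gsdmd features carry the same accession and read the same 4 pools, so they are not independent.

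Traf1, a partner of Birc2 and Birc3 at TNF receptors, read 14.51 and 14.63 in db/db pools against 13.93 and 13.95 in db/+ pools. Its difference was 0.63 (0.35 to 0.90), with an adjusted p of 0.0890 over all features and 0.0378 with the stretches left out. That call was lost after the kept features were normalized again, at 0.0507, and with genotype splits not counted, at 0.0511. Traf1 was also the pathway gene whose pattern lay nearest to that of Birc2 among 39 compared, by a Euclidean distance of 0.0540 between centred log2 values over the 4 pools. Gas2, a caspase substrate of the cytoskeleton, came next at 0.208. The genes nearest to Casp9 were Lmna, a nuclear lamin, at 0.143 and Gsdmd at 0.252. With 4 pools in 2 groups, these distances describe the arrays and little more.

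**Figure D4:**
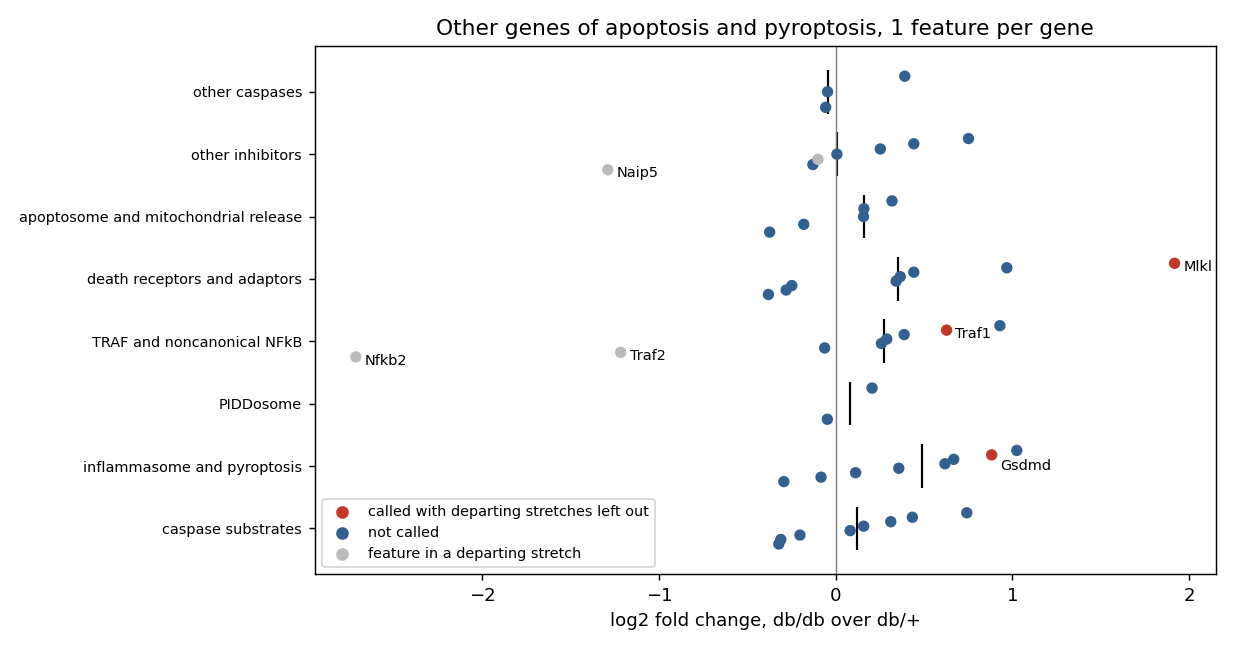
Log2 fold change of db/db over db/+ pools (x axis) for 49 further genes of apoptosis and pyroptosis, 1 point per gene, in 8 lists from top to bottom, with a vertical bar at the median of each list. Mlkl at 1.92, Gsdmd at 0.88 and Traf1 at 0.63, in red, were called with the departing stretches left out, and the grey points, the named Naip5, Nfkb2 and Traf2 among them, are genes with features only in such stretches.

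Of the other partners, Xiap, Fadd, Cycs, Diablo, Pycard and Traf2 were not called in either fit, and Traf2 was tested only with the stretches kept. Xiap, the inhibitor that binds active caspases, differed by 0.25 with an adjusted p of 0.494. Fadd, the adaptor of Casp8, differed by -0.25 with an adjusted p of 0.628. Cycs, the somatic cytochrome c, differed by -0.37 and Diablo, the mitochondrial antagonist of the inhibitors, by -0.18, with adjusted p of 0.664 and 0.391. Another kept feature of Cycs differed by 0.26 and 1 in a departing stretch by -2.84, so the kept features of Cycs did not share a direction. Pycard, the adaptor that recruits Casp1, read 12.99 and 12.77 in db/db pools against 12.07 and 12.45 in db/+ pools, a difference of 0.62 with an adjusted p of 0.216. Traf2 had only a feature in a departing stretch, which read 9.77 and 11.93 in db/db pools against 12.03 and 12.11 in db/+ pools, with an adjusted p of 0.513.

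Cflar, the catalytically inactive relative of Casp8 that blocks it, had 7 features that did not share a direction. Its brightest kept feature, for NM_207653, differed by -0.13 with an adjusted p of 0.547. A dimmer kept feature, for NM_009805, read 10.80 and 10.77 in db/db pools against 11.98 and 11.95 in db/+ pools. Its difference of -1.18 was called over all features with an adjusted p of 0.0445, and with an adjusted p of 0.0156 when the stretches were left out. It was the only one of 138 pathway features called over all features. A second feature for NM_009805, in a departing stretch, read 10.51 and 12.62 in db/db pools against 13.70 and 13.72 in db/+ pools, with an adjusted p of 0.291. The kept features for AK053567, AK009498 and Y14041 differed by 0.12, 0.14 and 0.23, the feature for BC023121 in a departing stretch by 0.49, and none of these was called. The files pair features with accessions and not with exons, so which transcript each one reads was not tested.

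Some pathway genes had calls on features other than the representing one when the stretches were left out, and these were picked out after their values were seen. A feature of the death receptor Fas, for AK086933, read 10.26 and 9.68 in db/db pools against 11.37 and 11.52 in db/+ pools, lower by a log2 difference of -1.48 with an adjusted p of 0.0329. The other 10 features of Fas, all for NM_007987, were not called. The one in a departing stretch differed by -0.91 and the kept ones by -0.38 to 0.26. Only the feature at 0.26 was positive, and its db/+ pools read 12.44 and 10.95. For Il1b, the interleukin that Casp1 processes, 1 of 10 features was called and read 10.75 and 10.48 in db/db pools against 9.26 and 9.27 in db/+ pools, with an adjusted p of 0.0188. Lmna, a lamin that Casp6 cleaves, had 2 such features, higher by 1.25 and 0.77 in db/db pools.

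By list, the 8 genes of inflammasome and pyroptosis had a median difference of 0.49 and the 8 of death receptors and their adaptors 0.35. The medians were 0.27 for 8 genes of TRAF and alternative NF-kB signalling, 0.16 for 5 genes of the apoptosome and mitochondrial release, and 0.12 for 8 caspase substrates. They were 0.08 for 2 PIDDosome genes, 0.01 for 7 other inhibitors and -0.05 for 3 other caspases. Over the 49 genes the median was 0.16. Both db/db pools lay above both db/+ pools in 27 and below both in 9. Over all gene features the shares were 31.2% above and 21.9% below, but these include many more features at background and were not split by brightness. Kept features with a mean from background to 10 had a median difference of 0.24, those of 10 to 12 had 0.26 and those of 12 to 15 had 0.11. That shift is over kept features, while the list medians above include genes read only in departing stretches. On kept genes the median was 0.25 for 5 other inhibitors and 0.34 for 6 genes of TRAF and alternative NF-kB signalling. Over the 45 kept genes it was 0.25. The kept medians have to be read against that shift.

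Markers of other blood cells moved with genotype in the same arrays. Summed over 10 neutrophil markers, the linear intensity was 65022 and 69043 in db/db pools against 7573 and 21327 in db/+ pools. Of those 10 markers, 6 had both db/db pools above both db/+ pools, 5 of 9 kept markers were called higher with the stretches left out, and Cxcr2 was at background. Over all features 3 of the 10 were called, all higher: Ltf, Ngp and Lcn2, with limma adjusted p of 0.0290, 0.0290 and 0.0355. Elane, in a departing stretch, and Mpo had negative differences of -1.52 and -0.86, in both cases with db/+ pool 2 far above db/+ pool 1. Elane read 7.37 and 6.93 in db/db pools, at background, against 7.42 and 9.92 in db/+ pools. Mpo read 10.07 and 9.75 in db/db pools against 9.06 and 12.47 in db/+ pools, so its groups overlapped. The sum over 5 macrophage and monocyte markers was 43691 and 39756 in db/db pools against 6831 and 13076 in db/+ pools, with all 5 above and 2 of 3 kept markers called higher, while Fcgr1 was at background. The sum over 7 B cell markers was 18505 and 13057 in db/db pools against 7851 and 11350 in db/+ pools, with Pax5 and Blk at background. Of these 7, 5 lay above in both db/db pools and 3 were called higher with the stretches left out. Over all features 2 were called higher, Cd22 and Bank1, with limma adjusted p of 0.0421 and 0.0471. Both CD8 T cell markers were called higher with the stretches left out, and their sum was 27407 and 27263 in db/db pools against 11504 and 14691 in db/+ pools. No macrophage, monocyte or CD8 T cell marker was called over all features.

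The sum over 7 T cell markers was 102501 and 78977 in db/db pools against 95135 and 101145 in db/+ pools, with all 7 of them above background in at least 1 group. The markers did not share a direction: their median difference was 0.56, with 4 above and 2 below in db/db pools. Thy1 was called higher, by 1.53, with the stretches left out. The sum was lowered by Cd5, at -3.82 in a departing stretch, and by Cd6, at -1.41, whose db/db pools read 14.78 and 12.33. Cd5 read 11.14 and 10.73 in db/db pools against 14.91 and 14.58 in db/+ pools. It was the only T cell marker called over all features, lower with a limma adjusted p of 0.0385. With genotype splits not counted, the adjusted p of Cd5 was 0.0145. Cd4 read 9.94 and 9.99 in db/db pools against 9.67 and 9.98 in db/+ pools. Sums over the erythroid, natural killer, dendritic and regulatory T cell lists stood at ratios of 2.47, 0.980, 0.578 and 0.692 of db/db over db/+ means, with members in both directions in each list. The median differences of these lists were 0.63, -0.13, -0.08 and 0.44. In the regulatory T cell list Il2ra was called lower, by -0.67, with the stretches left out. It read 14.37 and 14.27 in db/db pools against 15.08 and 14.90 in db/+ pools. Foxp3 and Ikzf2 differed by 0.74 and 0.44 without a call and were far dimmer, so Il2ra made up most of the sum of that list. In the dendritic list Flt3 and Siglech were at background. Casp1, Gsdmd and Mlkl had positive differences, as did the summed neutrophil and macrophage markers, and the part of these cells in the values of the 8 genes was not tested. In pooled bulk RNA, a different number of cells of a type and a different amount of RNA per cell cannot be told apart.

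Of 33709 gene features, 195 were called higher and 141 lower. Lepr, the mutated gene, read 6.42 and 6.23 in db/db pools against 6.30 and 6.25 in db/+ pools, at background in both groups, so it gives no check of the labels. The Y-linked Eif2s3y read 13.95 and 13.77 in db/db pools against 5.97 and 6.68 in db/+ pools, and Xist read 10.06 and 6.60 in db/db pools against 14.33 and 13.88 in db/+ pools. The pools thus differed in these sex-linked transcripts along with genotype, and sex and genotype cannot be told apart for any of the 8 genes. Raw median intensities were 102 to 254 per array. With 2 pools against 2, an exact permutation test of a single gene cannot go below p = 0.333, so the calls rest on the spread that limma shares between features. The labels do not say which pools came from which of the 2 experiments.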

How the data were processed

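Total RNA of 4 pools, 2 per genotype, was measured on one-colour arrays. The deposited raw table holds the median foreground intensity per feature, linear and without background subtraction, per the file headers. The deposited log2 values of the authors equal log2 of those intensities after quantile normalization without background correction, to within 5.00e-09. Limma is the only tool in the submitters' processing notes, and scanner software is not given in the sources used here.

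With limma 3.58.1 in R 4.3.3, the raw values were corrected by normexp (offset 50), log2 transformed and quantile normalized. Each feature was tested for db/db over db/+ by lmFit and eBayes, two-sided, with Benjamini-Hochberg adjustment over 33709 gene features and a threshold of 0.05. The code was tested on simulated data. Since row numbers are not feature numbers, each gene was placed on the array through a layout inferred from the data. With that layout, 2293 features of 218 accessions differed within an accession by a median of 0.138 log2 units, against 1.10 with row numbers taken as feature numbers. The annotation gave 33653 features 1 symbol and 56 several, for 19087 genes.

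Departing stretches are lines of the grid with over 5% of spots more than 2 log2 units away from the median of the other 3 arrays, and runs of 15 spots that held 3 or more of them. They held 24.5% of gene features. Leaving them out also removes features for their spread, which lowers the spread that limma shares. The brightest feature outside them represents a gene, or the brightest of all where none lies outside. Background is the median of all gene features, 7.55, and a fold against a group with both pools below it is a bound against that level.

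Named are the 8 genes, listed pathway genes called in either of the fits with and without stretches, fixed direct partners, and the 2 nearest pathway genes of each called member. Members, lists and the rule on stretches were chosen with earlier results of these data known. Promoters were matched by symbol for all 8 genes. Same-numbered pools did not deviate together (correlation -0.03), so they were not paired. Alternatives were other background correction, scaling, filtering, stretches, a replicate block, and each pool left out.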

Additional observations from a re-analysis of the deposited data

How the results depend on the processing

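For the 8 genes, 147 differences were recomputed under other settings: 138 kept their direction and side of the threshold, 7 were called only under the alternative, and 2 reversed. The 138 are no measure of robustness, as many could not have come out otherwise. Several settings called no feature at all, so no gene could become called there. Settings that only drop features or add a block keep the same values, so the difference of a representing feature was fixed. The 2 reversed differences took the median over all features of a gene, at -0.058 for Apaf1 and -0.045 for Birc2. Against 0 of 12 features called, 2 of 7 were called with departing stretches left out, 1 of 7 when cyclic loess was added, 3 of 7 when background correction was dropped as well (Apaf1, Birc2 and Birc3), and 1 of 10 with genotype splits not counted. None of 7 was called with median scaling or a second normalization added, where 2 and 4 passed an unadjusted 0.05.

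With the replicate block, 0 of 12 member features were called (5 at an unadjusted p below 0.05), 0 of 7 with stretches left out (5), 1 of 45 pathway genes, and 0 of 33709 features (5146 at an unadjusted p below 0.05), against 445 of 25467 with stretches left out. The pools share only a number, and the block stands for no known pairing. Leaving out each pool called 0 features in every fit, with or without the stretches (4208 to 7565 at an unadjusted p below 0.05).

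The pathway count of 0 became 3 with stretches left out, 3 with loess or no background correction added, 4 with median scaling, and 2 with a second normalization or with genotype splits not counted. The count of 336 over all features became 149 under cyclic loess and 194 of 17080 with dim features left out. It was 2089 of 25467 with stretches left out, and 1697, 1922, 1884 and 1927 with cyclic loess, median scaling, no background correction or a second normalization added. It was 1579 of 28757 with genotype splits not counted. Of 336 calls 195 were higher, against 126 of 396 under median scaling and 58 of 149 under loess, so the split of all calls depends on the scaling. With stretches left out 1705 of 2089 were higher, against 1101 of 1927 after a second normalization. The causes were not tested. Only 2 pools per group limit the precision, and features at background, such as those of Casp9 in db/+ pools, carry only a bound.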
